A study of Mus musculus with 10 samples.

Results

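The 10 gut hormone genes Gcg, Cck, Sct, Gip, Pyy, Nts, Sst, Ghrl, Insl5 and Tac1 were taken by name out of 47069 genes counted in mouse intestinal organoids. Each encodes a peptide precursor of enteroendocrine cells, and all 10 were found in the table under 1 identifier each. 26392 of the 47069 genes had at least 1 count.

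The organoids came from crypts of C57BL/6 mice carrying Lgr5-EGFP-CreERT2 and Ppp2r1a flox/flox, were embedded in Matrigel with noggin, EGF and R-spondin-1, and were kept in culture for 50 days. Each of 5 groups had 2 libraries: control (saline), DMBA (a polycyclic hydrocarbon carcinogen, labelled Long), TAM short and TAM long (labelled with tamoxifen and no DMBA), and DMBA+TAM (both agents). The comparison asks how the carcinogen and the deletion of Ppp2r1a, the scaffold subunit of the phosphatase PP2A, act alone and together. The floxed alleles and the Cre transgene were shared by all groups, tamoxifen activates this Cre only in Lgr5-expressing cells, whose progeny inherit the deletion, and what short and long stand for is not given in the sources used here. The sample titles were NS for control, NL for DMBA, DSS_S and DSS_L for TAM short and TAM long, and Lgr5 for DMBA+TAM. The tamoxifen labels add the words dosage-sensitive, and neither these nor the titles are explained. Nothing in the labels says that the libraries of a group came from separate cultures or animals, so p-values measure the spread between these libraries only. With 2 libraries against 2, an exact two-sided permutation test of a single gene cannot go below p = 0.333.

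Enteroendocrine cells are scattered secretory cells of the gut epithelium that arise from Lgr5-expressing stem cells through the transcription factor Neurog3. They sense nutrients at the lumen, cut peptide precursors in dense-core granules and release hormones that act on the gut wall, pancreas, gallbladder and brain. Their hormones are known to be unevenly spread along the gut: Gip, Cck, Sct and Ghrl are typical of the upper small intestine, Nts of the ileum, Gcg and Pyy of the ileum and colon, and Insl5 of the colon and rectum.

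The 8 libraries outside DMBA+TAM held 8828247 to 10923673 counts each, whereas the DMBA+TAM libraries held 1592366 and 1915270. The organoid label was checked against 10 epithelial markers including Epcam and Krt8. They summed to 13565 to 23097 normalised CPM in those 8 libraries and to 22.9 to 33.3 in DMBA+TAM. There, 12 fibroblast markers summed to 34065 to 34852, against 1392 to 1540 in control. On these markers the DMBA+TAM libraries did not match an epithelial organoid label. Normalised CPM are counts scaled to a common library size by edgeR's trimmed mean of M values (TMM). A count of 0 allows up to 3 counts, which is 0.259 to 0.379 CPM in those 8 libraries and 1.58 and 1.32 CPM in DMBA+TAM. Ppp2r1a was at 123 and 129 CPM in the control libraries, 167 and 153 in DMBA, 131 and 147 in TAM short, 169 and 157 in TAM long and 129 and 133 in DMBA+TAM, so on this scale no library labelled TAM lay below both controls, and the DMBA+TAM libraries lay below those of DMBA. The floxed exons cannot be separated in these whole-gene counts. The gut segment of origin is not given for any library, and the segment markers differed between groups. 10 small intestine markers summed to 22321 to 26764 CPM in control and 15941 to 16004 in TAM short, but to 169 to 204 in DMBA and 211 to 293 in TAM long. 7 colon markers summed to 309 to 350 CPM in control, 211 to 216 in TAM short, 3998 to 7519 in DMBA and 5760 to 12440 in TAM long. Treatment and segment therefore cannot be told apart in the comparisons of DMBA or TAM long with control or TAM short. Fewer hormone cells and less hormone RNA per cell cannot be told apart either in bulk RNA.

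The genes lie on 8 chromosomes (coordinates as deposited, GRCm38.p6). The incretin gene Gip occupies chr11:96024545-96030831 on the plus strand and has 6 exons in its principal GENCODE transcript. Pyy is on the same chromosome at chr11:102106676-102107832 on the minus strand, with 4 exons. Insl5 lies at chr4:103017872-103026842 on the minus strand with 2 exons, and Gcg at chr2:62474530-62483650 on the minus strand with 6 exons. The others are Cck (chr9:121489825-121495689), Sct (chr7:141278331-141279133), Nts (chr10:102481760-102490418), Sst (chr16:23889581-23890844), Ghrl (chr6:113716119-113719880) and Tac1 (chr6:7554879-7565834). In GENCODE no other gene overlapped 9 of them. Ghrl overlapped 2 annotated transcribed regions on the opposite strand, and the library kit is not stated to mark strand.

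The sequences upstream of Gip and Insl5 are shown because Gip had counts in control and TAM short and none elsewhere, while Insl5 was abundant only in DMBA and TAM long, and those of Pyy and Gcg because both are genes of L cells. They are read from RefSeq (GRCm38.p6), 5′ to 3′ on the gene's strand, and end at the base before the start of transcription. For Insl5 the bases that the deposited annotation counts as part of the gene are left out. Capitals mark TTTAT (a core bound by Cdx factors) and GATAA (a core bound by GATA factors), on either strand.
Gip, chr11:96024295-96024544, plus strand: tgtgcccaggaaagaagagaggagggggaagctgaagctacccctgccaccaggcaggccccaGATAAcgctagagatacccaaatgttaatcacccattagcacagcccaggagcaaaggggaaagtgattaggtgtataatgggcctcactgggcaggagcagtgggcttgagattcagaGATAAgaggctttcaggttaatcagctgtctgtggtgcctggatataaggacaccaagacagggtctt
Insl5, chr4:103026843-103026978, minus strand: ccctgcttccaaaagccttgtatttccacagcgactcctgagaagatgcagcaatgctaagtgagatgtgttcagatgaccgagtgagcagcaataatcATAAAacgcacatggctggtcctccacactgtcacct
Pyy, chr11:102107833-102108082, minus strand: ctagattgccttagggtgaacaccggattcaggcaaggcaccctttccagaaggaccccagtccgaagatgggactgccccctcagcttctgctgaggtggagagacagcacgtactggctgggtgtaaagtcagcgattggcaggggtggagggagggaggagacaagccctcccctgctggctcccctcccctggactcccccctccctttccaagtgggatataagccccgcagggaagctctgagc
Gcg, chr2:62483654-62483903, minus strand: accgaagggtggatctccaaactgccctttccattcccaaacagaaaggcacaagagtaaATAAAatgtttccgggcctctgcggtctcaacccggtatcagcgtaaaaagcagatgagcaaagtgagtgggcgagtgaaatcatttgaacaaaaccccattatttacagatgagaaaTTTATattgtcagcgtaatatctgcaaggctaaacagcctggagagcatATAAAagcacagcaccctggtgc

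In the full window of 250 bases before the RefSeq start, Gip held GATAA at 2 places and no TTTAT. Insl5 held 3 matches of each, and Gcg held TTTAT at 3 places and no GATAA. The Gcg match nearest the start shares its bases with a TATA-box-like stretch, as does the only TTTAT match of Sct, at -27. The only TTTAT match of Tac1 lies at a similar distance, at -30. In Insl5 1 pair of matches overlaps, and in Cck and Tac1 the TTTAT match overlaps the GATAA match. All of these matches enter the counts over the 10 genes. Pyy held neither motif. Over all 10 genes, 6 windows held TTTAT and 5 held GATAA, against 37.3% and 22.6% of the 32817 RefSeq windows of this length. The E-box letters CANNTG, bound by basic helix-loop-helix factors such as Neurog3 and Neurod1, were present in 10 of 10 windows and in 66.2% of all windows.

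The deposited FPKM of these genes differed by up to 50.3% from counts over listed length and library total, so the order between genes rests on how the authors computed them. On that per-length scale (FPKM as deposited), control organoids were led by Gip at 69.3 ± 5.76 FPKM (mean ± SD, n = 2 here and below), followed by Sct at 39.3 ± 4.35 and Gcg at 18.6 ± 6.62. These leading genes did not overlap each other between libraries, whereas Gcg, Sst, Nts and Cck overlapped their neighbours in the order. DMBA organoids were led by Insl5 at 59.2 ± 60.6 FPKM, Pyy at 41.0 ± 7.44 and Sst at 29.9 ± 14.7, which all overlapped. In TAM short the order was Sct at 71.4 ± 5.46, Gcg at 51.6 ± 0.680 and Pyy at 40.8 ± 4.56 FPKM. Pyy, at 44.1 and 37.6 FPKM, overlapped Nts (37.3 and 39.3) and Gip (40.5 and 23.0) there. TAM long was led by Pyy at 70.6 ± 4.65 FPKM, above Gcg at 59.0 ± 7.58 and Insl5 at 50.3 ± 36.0 by their means. Insl5 overlapped both, at 24.9 FPKM in replicate 1 and 75.7 in replicate 2, where it exceeded Pyy at 73.9. Ghrl was 9th in each of these 4 groups, between 0.554 and 1.34 FPKM.

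**Figure D1:**
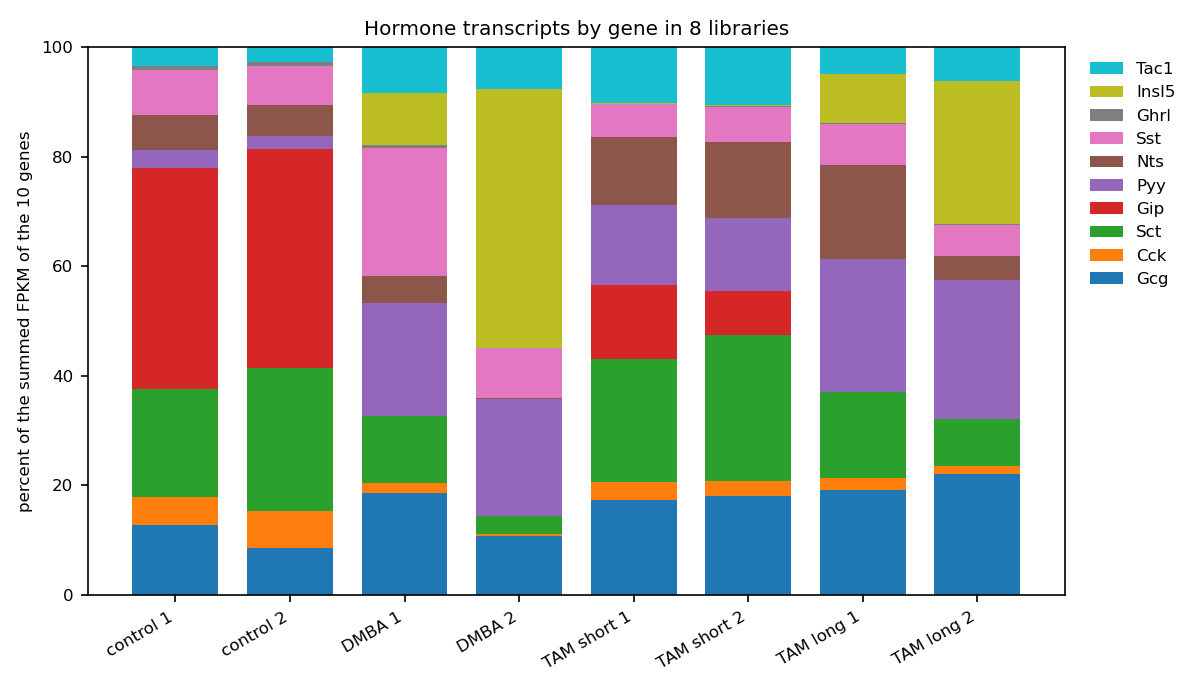
Share of each gene (colours) in the summed FPKM of the 10 gut hormone genes, in percent, for the 8 libraries outside DMBA+TAM (bars). Gip took 40.3% and 40.1% in the control libraries and 0% in the DMBA and TAM long libraries, where Insl5 took 8.91% to 47.3%.

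The summed FPKM of the 10 genes was 182 and 163 in the control libraries and 173 and 216 in DMBA. It was 300.5 and 283 in TAM short, 279 and 290.5 in TAM long, and 4.11 and 5.72 in DMBA+TAM. The order of DMBA and control depended on the scale: in summed normalised CPM, DMBA was at 105 and 138 against 144 and 129 in control, within or below the control range. On both scales the libraries of TAM short and TAM long lay above those of control and DMBA, and the make-up differed. Gip supplied 40.3% and 40.1% of the total in control and 13.5% and 8.15% in TAM short. Pyy supplied 3.29% and 2.32% in control, 20.6% and 21.4% in DMBA, 14.7% and 13.3% in TAM short and 24.1% and 25.4% in TAM long.

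Gip encodes glucose-dependent insulinotropic polypeptide, the incretin of K cells. Its counts were 476 and 411 in control, 251 and 128 in TAM short, and 0 in both libraries of DMBA, TAM long and DMBA+TAM. The control and TAM short libraries did not overlap, and every library of the other groups was empty. Against a floor of 3 counts per library, Gip was at least 171-fold lower in DMBA and at least 187-fold lower in TAM long than in control. Gip passed the filter on low counts only through the control and TAM short libraries, so its differences from other groups are given as a description. In TAM short it fell from 51.7 ± 3.05 to 22.3 ± 8.63 normalised CPM. The log2 fold change was -1.21 (SE 0.27, adjusted p = 0.0310, edgeR quasi-likelihood F test, Benjamini-Hochberg adjusted over all genes tested, as for every adjusted p below). That call was lost without either control library (adjusted p = 0.180 and 0.152) and without TAM short replicate 2 (log2 fold change -0.86, adjusted p = 0.132). From TAM short to TAM long, Gip was at least 80.4-fold lower.

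Insl5 encodes insulin-like peptide 5, made by L cells of the large bowel and recognised by Rxfp4. Its counts were 0 and 0 in control, 93 and 530 in DMBA, 3 and 2 in TAM short, 154 and 418 in TAM long, and 0 and 0 in DMBA+TAM. Insl5 was abundant in DMBA and TAM long, which had no Gip count, while DMBA+TAM had neither. Its level differed 7.17-fold between the DMBA libraries and 3.09-fold between those of TAM long. It was at least 96.8-fold higher in DMBA and at least 77.6-fold higher in TAM long than in control. From the lower library alone (replicate 1 of each), these bounds were 23.7-fold and 37.9-fold. Insl5 passed the filter on low counts only through the libraries of DMBA and TAM long, so its differences from other groups are given as a description. It was also higher in TAM long than in TAM short (log2 fold change 6.43, SE 1.38), a call lost without either TAM short library. The difference of TAM long from DMBA was -0.31 (SE 0.80, adjusted p = 0.874), with overlapping libraries.

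**Figure D2:**
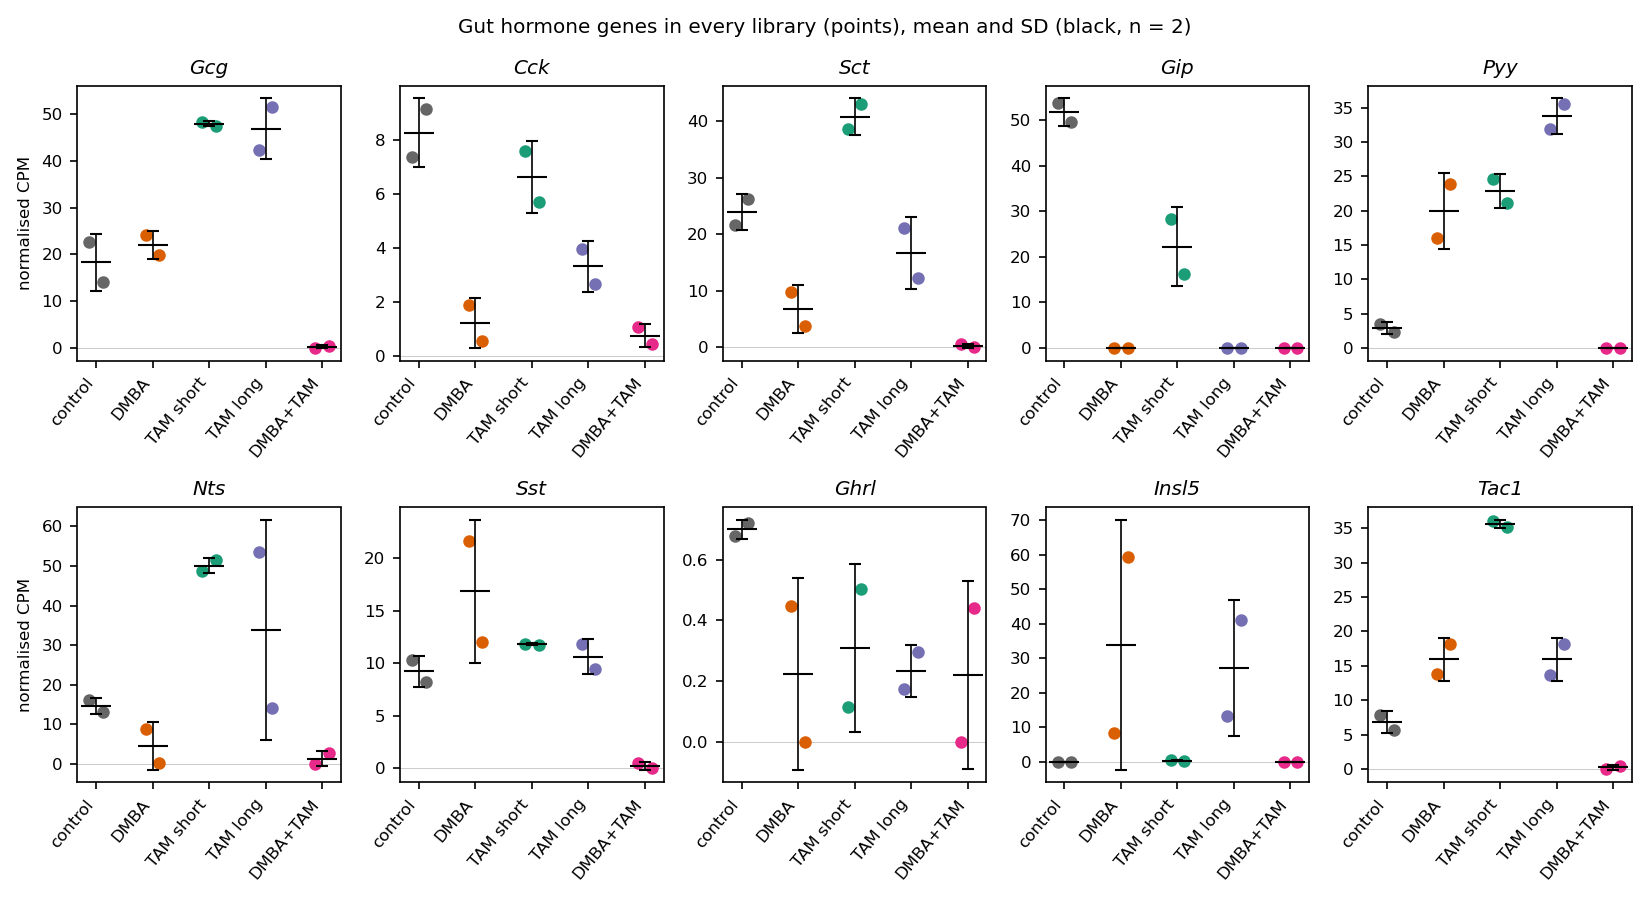
Normalised CPM (y axis, own scale in each panel) of the 10 genes in the 2 libraries of each group (coloured points), with mean and SD (black). Gip is at 0 in DMBA, TAM long and DMBA+TAM, Insl5 is at 0 in control and DMBA+TAM, and Pyy is above control in DMBA, TAM short and TAM long.

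Pyy encodes peptide YY, a satiety hormone of L cells. Normalised CPM were 3.50 and 2.29 in control, 16.1 and 23.9 in DMBA, 24.6 and 21.1 in TAM short, 31.9 and 35.6 in TAM long, and 0 in both DMBA+TAM libraries. All 6 libraries with a single agent lay above both controls, and TAM long lay above DMBA and TAM short. Pyy rose in DMBA by a log2 fold change of 2.77 (SE 0.28, adjusted p = 7.77e-05), in TAM short by 2.97 (SE 0.28, adjusted p = 0.000289) and in TAM long by 3.53 (SE 0.28, adjusted p = 1.90e-05). The same control libraries enter these comparisons. TAM long differed from DMBA by 0.76 (adjusted p = 0.117) and from TAM short by 0.56 (adjusted p = 0.0777), which did not pass.

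Gcg encodes proglucagon, cut to GLP-1 and GLP-2 in L cells. Its normalised CPM were 22.6 and 13.97 in control, 24.2 and 19.9 in DMBA, 48.4 and 47.6 in TAM short, and 42.3 and 51.5 in TAM long. The DMBA libraries overlapped control, while the 4 tamoxifen-only libraries all lay above both of these groups. Gcg rose in TAM short (log2 fold change 1.39, SE 0.23, adjusted p = 0.00397) and in TAM long (1.35, SE 0.23, adjusted p = 0.00112), but not in DMBA (0.27, SE 0.23, adjusted p = 0.371). TAM long exceeded DMBA by 1.09 (SE 0.23, adjusted p = 0.0401). The last call was lost with scaling by library size (adjusted p = 0.0620), in a fit of the 4 libraries alone (adjusted p = 0.135) and without DMBA replicate 2 or either TAM long library (adjusted p = 0.0973 to 0.199).

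Cck encodes cholecystokinin of I cells, which contracts the gallbladder, and Sct encodes secretin of S cells, which drives pancreatic bicarbonate. Cck was at 7.35 and 9.15 normalised CPM in control, 1.87 and 0.562 in DMBA, 7.57 and 5.68 in TAM short and 3.97 and 2.65 in TAM long. Sct was at 21.6 and 26.1 in control, 9.73 and 3.82 in DMBA, 38.5 and 43.0 in TAM short and 21.1 and 12.2 in TAM long. Both genes had their lowest levels outside DMBA+TAM in DMBA replicate 2. In DMBA, Cck fell by 2.69 on the log2 scale (SE 0.46, adjusted p = 0.00113) and Sct fell by 1.79 (SE 0.39, adjusted p = 0.00427). Both calls held with either DMBA library left out, but their size depended on it: Cck was at -3.86 without replicate 1 and -2.14 without replicate 2, and Sct at -2.66 and -1.30. In TAM long, Cck fell by 1.31 (SE 0.41, adjusted p = 0.0269), a call lost with DESeq2 (adjusted p = 0.0542), with library size scaling (adjusted p = 0.0912) and without any 1 of the 4 libraries (adjusted p = 0.0587 to 0.174). Sct differed from control by -0.51 in TAM long (adjusted p = 0.276) and by 0.77 in TAM short (adjusted p = 0.189). Sct was lower in TAM long than in TAM short (log2 fold change -1.29, SE 0.36, adjusted p = 0.0175). That call did not pass with library size scaling (adjusted p = 0.0555) or without either TAM short library or TAM long replicate 2 (adjusted p = 0.0636 to 0.131).

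Nts encodes neurotensin, a peptide of N cells that slows motility and aids fat uptake. Its counts were 142 and 109 in control, 99 and 3 in DMBA, 431 and 408 in TAM short, 620 and 144 in TAM long, and 0 and 6 in DMBA+TAM. TAM short lay above control in both libraries, and the libraries of DMBA and of TAM long were far apart within their groups. No difference of Nts passed the test: the log2 fold change was 1.78 in TAM short (SE 0.79, adjusted p = 0.170), 1.22 in TAM long (SE 0.78, adjusted p = 0.232) and -1.60 in DMBA (SE 0.87, adjusted p = 0.159). Without DMBA replicate 1 the value in DMBA was -5.40 (adjusted p = 0.00710), so the estimate rests on which library is kept. In a fit of the control and TAM short libraries alone, the TAM short value was 1.83 (adjusted p = 6.02e-07).

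Sst encodes somatostatin, the inhibitory peptide of D cells, and Tac1 encodes the precursor of substance P, found in enterochromaffin cells and in enteric neurons. Sst was at 10.3 and 8.19 normalised CPM in control, 21.6 and 12.02 in DMBA, 11.9 and 11.7 in TAM short and 11.8 and 9.43 in TAM long. Only DMBA replicate 1 stood well above the other libraries, and the group means outside DMBA+TAM ran from 9.24 to 16.8. It was higher in DMBA by 0.87 (SE 0.30, adjusted p = 0.0371), which was lost with DESeq2 (adjusted p = 0.0645), in a fit of 4 libraries (adjusted p = 0.0761) and without either control library or DMBA replicate 1 (adjusted p = 0.0898 to 0.353). Without DMBA replicate 1 the value was 0.35. Sst differed from control by 0.35 in TAM short (adjusted p = 0.504) and 0.20 in TAM long (adjusted p = 0.615).

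Tac1 was at 7.91 and 5.66 normalised CPM in control, 13.8 and 18.2 in DMBA, 36.0 and 35.2 in TAM short and 13.7 and 18.2 in TAM long. TAM short was the highest group, and DMBA and TAM long were alike in range. Tac1 rose in TAM short by 2.39 (SE 0.25, adjusted p = 0.000298), in DMBA by 1.23 (SE 0.25, adjusted p = 0.00298) and in TAM long by 1.23 (SE 0.25, adjusted p = 0.00306), and was lower in TAM long than in TAM short (-1.16, SE 0.23, adjusted p = 0.00298). Markers of enteric neurons, 12 genes including Elavl4 and Uchl1, summed to 81.4 to 92.6 CPM in control, 169 to 184 in DMBA, 117 to 135 in TAM long and 45.05 to 72.3 in TAM short, where Chat was at 0. Tac1 was highest in TAM short, which had the lowest neuronal sum of these 4 groups, and the part of neurons in that level was not tested. In DMBA 9 of the 12 neuronal genes rose and in TAM long 6 did, where 24.5% and 23.2% of all genes rose, and their part in the higher Tac1 of both groups and the higher Sst of DMBA was not tested. Ghrl, the precursor of the appetite hormone ghrelin, had 6 and 6 counts in control and 0 to 5 in every other library, did not pass the filter on low counts and was not tested.

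**Figure D3:**
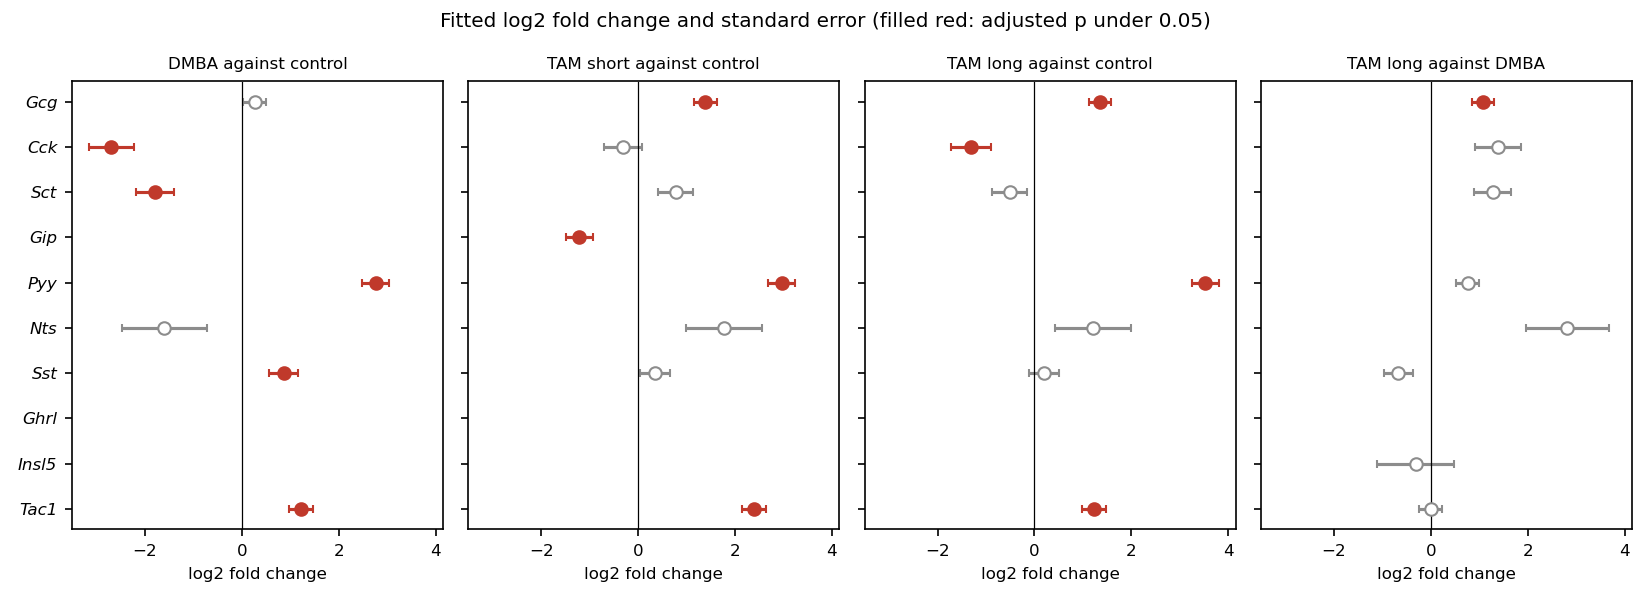
Fitted log2 fold change (x axis) with its standard error for each gene with counts in both groups, in 4 comparisons; filled red points passed adjusted p under 0.05 and open points did not. Gip and Insl5 are absent where a group had no count, and Ghrl was not tested. Pyy and Tac1 are right of 0 in all 3 comparisons with control.

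In DMBA against control, 4 of the 9 genes tested were higher (Pyy, Tac1, Sst and Insl5) and 3 were lower (Cck, Sct and Gip), where 24.5% of all 16179 genes tested were higher and 23.3% lower. The median log2 fold change was 0.27 over the 9 genes and 0.07 over all genes. Gip passed the filter on low counts only through control and TAM short, and Insl5 only through DMBA and TAM long. Their calls against other groups, here and below, are given as a description. In TAM long against control, 4 were higher (Gcg, Pyy, Insl5 and Tac1) and 2 lower (Cck and Gip), against 23.2% and 22.8% of all genes, with a median of 1.22 against 0.05. Counts of this size lie in comparisons where nearly as many genes changed as did not. In TAM short against control, 3 were higher (Gcg, Pyy and Tac1) and 1 was lower (Gip), against 6.52% and 7.8% of all genes. The median there was 1.39 over the 9 genes and -0.04 over all genes.

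The TAM long and DMBA groups, which share the colon marker pattern, differed in 1 of the 8 tested genes that had counts in either group (Gip had none): Gcg was higher and none was lower, where 1.24% of all genes were higher and 1.46% lower. Nts differed by 2.82 (SE 0.86, adjusted p = 0.113), Cck by 1.39 (SE 0.48, adjusted p = 0.152) and Sct by 1.28 (SE 0.39, adjusted p = 0.113), all with every TAM long library above every DMBA library but without passing. Tac1 differed by 0.00 (SE 0.23). Without DMBA replicate 1 the count called was 4, with Nts at 6.59 (adjusted p = 0.0111), Cck at 2.53 (adjusted p = 0.0312) and Sct at 2.13 (adjusted p = 0.0122). A group left with 1 library is assumed to vary like the other groups. Without either TAM long library or DMBA replicate 2 the count was 0 to 1. Between the tamoxifen-only groups, 1 gene was higher in TAM long (Insl5) and 3 were lower (Sct, Gip and Tac1), against 22% and 20.3% of all genes.

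DMBA+TAM libraries had 4 and 10 counts over all 10 genes, against 1069 to 2223 in every other library. Gip, Pyy and Insl5 had no count, and Nts had the most, 6 in replicate 2. Relative to control, 7 of the 8 tested genes with counts in either group were lower (Insl5 had none) and none was higher (none at an unadjusted p under 0.05 or with DESeq2), where 35.3% of all genes were lower and 29% higher. Of these 7, only Cck passed the filter on low counts with a DMBA+TAM library, so the count is given as a description. The median log2 fold change was -5.18 over the 9 genes, with Insl5 entered at 0, and -0.17 over all genes. Gip was at least 35.6-fold lower and Pyy at least 1.99-fold lower. Gcg was 76.7-fold lower by total counts (95% exact binomial interval 13.7 to 3041, counting error only), Sct 99.1-fold (17.7 to 3923), Sst 38.6-fold (6.83 to 1535) and Tac1 28.4-fold (5.00 to 1132). Cck, with 2 and 1 counts, was 11.4-fold lower (3.83 to 56.0). Nts did not pass (log2 fold change -3.34, SE 1.505, adjusted p = 0.0768), but did with the replicate number as a block (adjusted p = 0.0479).

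Relative to DMBA, 6 genes were lower in DMBA+TAM (Gcg, Sct, Pyy, Sst, Insl5 and Tac1) and none was higher, against 29.9% and 25.2% of all genes. These 6 genes passed the filter on low counts through no DMBA+TAM library, so this count is given as a description too. The Insl5 call was lost without either DMBA+TAM library (adjusted p = 0.0582 and 0.0711) and the Sct call without DMBA+TAM replicate 2 (adjusted p = 0.0616). The fall in hormone counts came with that of the whole epithelial list, in which 10 of 10 markers were lower than in control, while 11 of 12 fibroblast markers were higher. Whether the hormone genes fell beyond the loss of epithelial RNA was not tested.

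The libraries of DMBA and of TAM long differed among themselves, in the same direction for most hormone genes. Replicate 1 of each had more Nts (8.84 against 0.337 normalised CPM in DMBA, 53.5 against 14.2 in TAM long), more Sct and more Cck. Replicate 2 of each had more Insl5 (59.5 against 8.31 in DMBA, 41.1 against 13.3 in TAM long). The gap was 26.2-fold and 3.78-fold for Nts. It was smaller for Sst (1.80-fold and 1.25-fold, higher in replicate 1), Pyy (1.49-fold and 1.11-fold, higher in replicate 2) and Tac1 (1.32-fold and 1.33-fold, higher in replicate 2). Gcg went against a shared direction, higher in replicate 1 of DMBA and in replicate 2 of TAM long (1.22-fold in each), as did Ghrl on 0 to 5 counts. Colon markers of the fixed list moved with this split: Car1 was at 6086 CPM in DMBA replicate 1 against 1145 in replicate 2, and at 11129 against 2843 in TAM long, whereas Hoxb13, a gene of the hindmost gut, was at 2.59 against 186 in DMBA and 1.12 against 11.6 in TAM long. The part of this difference between libraries in the hormone levels was not tested.

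TAM short and control differed in segment markers too. Gata4, a transcription factor of the upper small intestine, was at 136 and 153 CPM in control and 36.9 and 13.6 in TAM short. Fabp6, the ileal bile acid binding protein, was at 2.83 and 0.241 CPM in control and 7847 and 8965 in TAM short. Within TAM short, replicate 2 had less Gata4 than replicate 1 and also less Gip (16.2 against 28.4 CPM). The higher Gcg, Pyy and Tac1 and the lower Gip of TAM short stood beside these marker differences, and treatment and position along the gut cannot be told apart here.

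**Figure D4:**
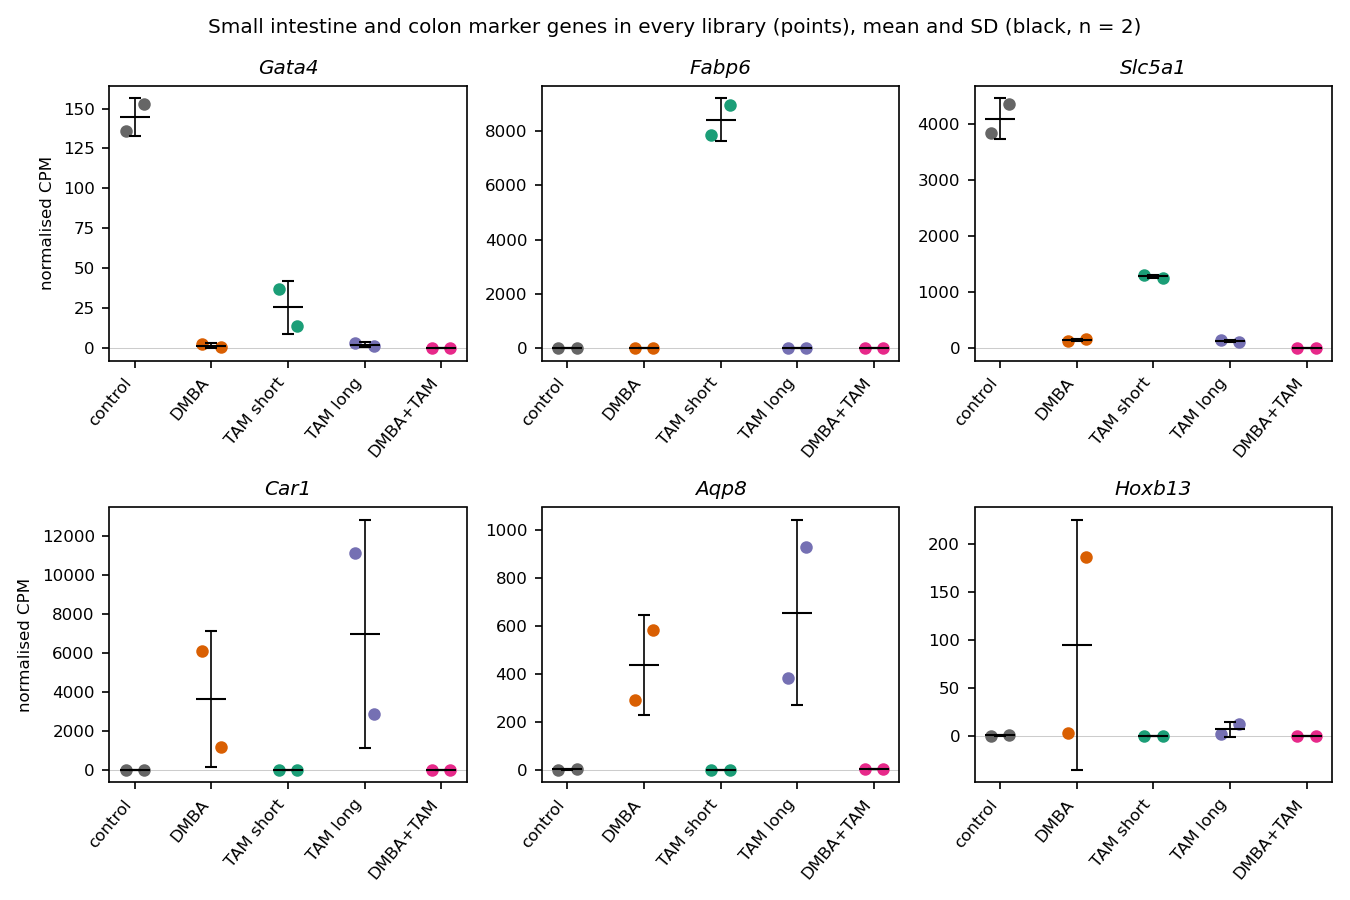
Normalised CPM (y axis, own scale in each panel) of 3 small intestine and 3 colon markers in the 2 libraries of each group (points), with mean and SD (black). Gata4 is highest in control, Fabp6 in TAM short, and Car1, Aqp8 and Hoxb13 in DMBA and TAM long, with wide gaps between the libraries of those groups.

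Genes of the dense-core granule and of prohormone cleavage, 12 in the list, did not follow the hormones as a block. Chga, which encodes chromogranin A, was at 66.0 and 50.9 normalised CPM in control, 14.4 and 14.3 in DMBA, 28.6 and 22.5 in TAM short and 39.3 and 26.7 in TAM long. It was highest in control, so the summed CPM of the 10 hormone genes per CPM of Chga was 2.18 and 2.53 in control against 7.29 and 9.69 in DMBA, 8.55 and 10.4 in TAM short and 4.88 and 6.92 in TAM long. Chga fell in DMBA (log2 fold change -2.03, SE 0.23, adjusted p = 8.36e-05) and in TAM short (-1.19, SE 0.22, adjusted p = 0.00645). In DMBA 7 of 12 granule genes rose and 2 fell, where 24.5% of all genes rose and 23.3% fell, and with DESeq2 5 rose and 2 fell. Pam, the enzyme that amidates peptide ends, rose by 2.50 (adjusted p = 2.24e-05) and Pcsk1n by 1.83 (adjusted p = 0.00199). Resp18 was higher by 1.64, with 25 and 23 counts in DMBA against 6 and 7 in control. Resp18 passed the filter on low counts through no control library. Its level, and its part in the counts of granule genes here and below, are therefore given as a description. In TAM long 8 rose and 1 fell (Chga, -0.82, adjusted p = 0.0112), against 23.2% and 22.8% of all genes, with Pam at 2.15 (adjusted p = 5.37e-05) and Pcsk1, the convertase that frees GLP-1 from proglucagon, at 1.52 (adjusted p = 0.00178). In TAM short none rose (none at an unadjusted p under 0.05 or with DESeq2) and 2 fell, against 6.52% and 7.8% of all genes. Besides Chga, the gene that fell was Cpe, a carboxypeptidase that trims cleaved peptides (-1.07, adjusted p = 0.0290). Pam was at 213 and 208 CPM and Cpe at 35.4 and 45.4 in DMBA+TAM, where epithelial markers and hormone genes were nearly without counts. Markers of other cell types moved with the granule genes: 9 of 12 neuronal and 9 of 12 fibroblast genes rose in DMBA, and 6 and 7 of 12 in TAM long, and their part in the granule genes was not tested. In DMBA+TAM against control 1 of the 12 rose and 7 fell, where 29% of all genes rose and 35.3% fell, with Pcsk1 at 0 counts in both libraries.

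**Figure D5:**
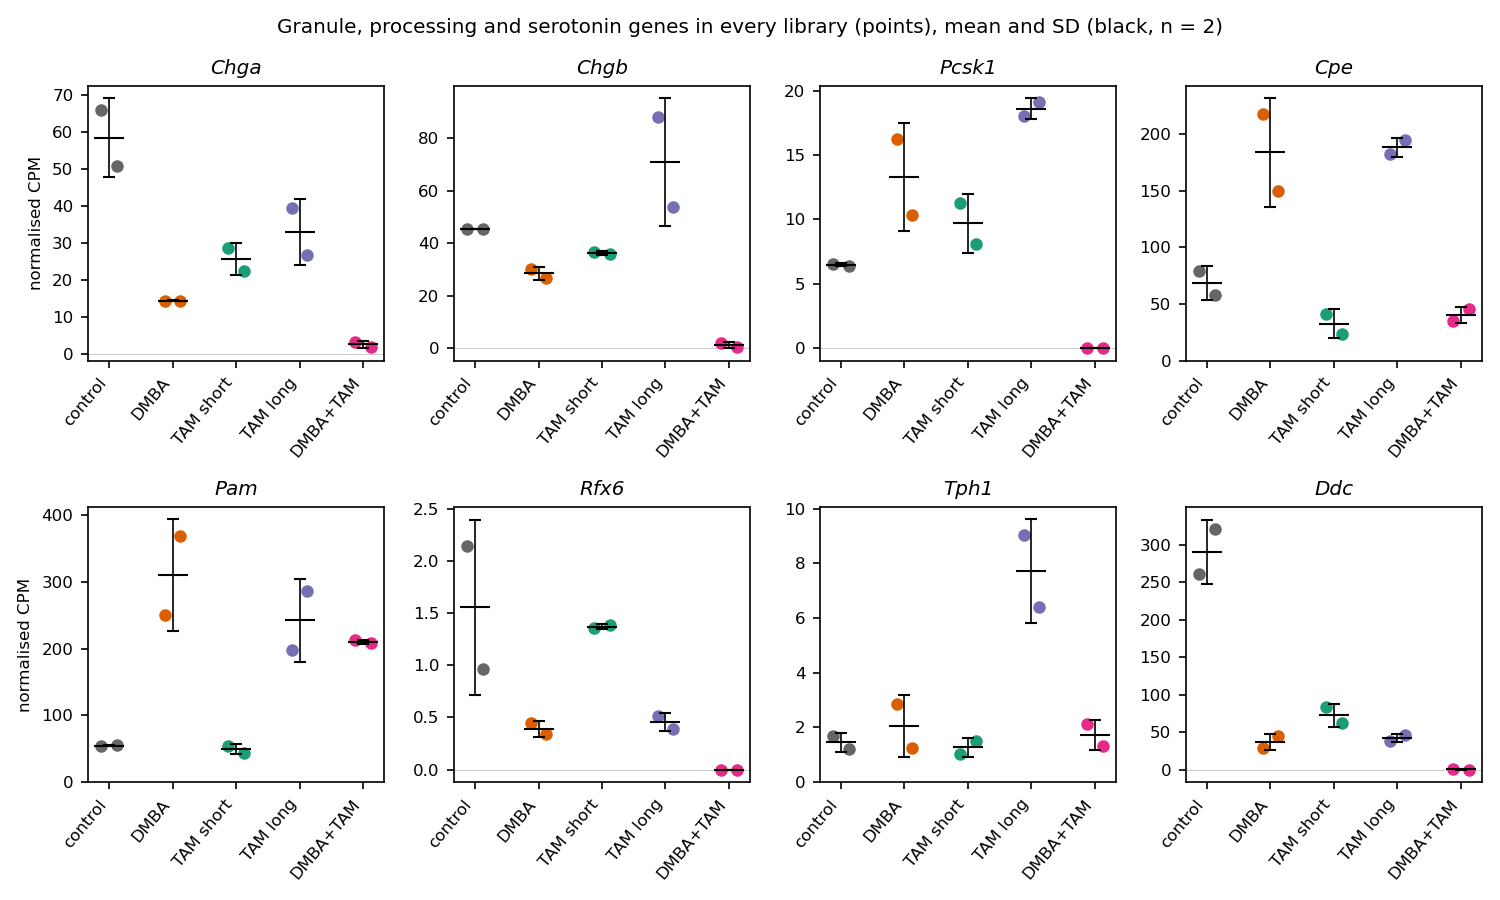
Normalised CPM (y axis, own scale in each panel) of granule and processing genes, the transcription factor Rfx6 and the serotonin genes Tph1 and Ddc in the 2 libraries of each group (points), with mean and SD (black). Chga and Ddc are highest in control, Cpe is highest in DMBA and TAM long, and Tph1 is highest in TAM long.

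Transcription factors of the endocrine lineage were scarce. The 13 genes together summed to 8.43 to 8.93 CPM in control, 5.84 to 9.29 in DMBA, 12.8 to 13.0 in TAM short and 10.02 to 11.2 in TAM long. In DMBA+TAM the sum was 2.64 to 5.73 and 9 of the 13 had no count, but the low level of most of them elsewhere was near or under what 3 counts amount to in those small libraries. There 1 was higher and 3 were lower than in control, against 29% and 35.3% of all genes, and with DESeq2 1 was higher and 1 lower. The gene higher there had passed the filter on low counts only through the DMBA+TAM libraries. Of the 9 that could be tested, Rfx6 was lower in DMBA (5 and 3 counts against 19 and 8 in control) and in TAM long (6 and 4 counts), neither of which passed with DESeq2. Rfx6 passed the filter on low counts only through libraries of control and TAM short, so its level is given as a description. In TAM short 1 gene was higher. These counts of 1 stand against 23.3% and 22.8% of all genes lower and 6.52% higher. The gene higher in TAM short was Pax4, a factor of early endocrine precursors, with 30 and 27 counts in TAM short against 1 and 0 in control, 4 and 1 in DMBA and 2 and 2 in TAM long. It passed the filter on low counts only through the TAM short libraries, so its level there is given as a description.

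The serotonin genes of enterochromaffin cells split. For Tph1, the rate-limiting enzyme of serotonin synthesis, counts were 15 and 10 in the controls, 32 and 11 in DMBA, 9 and 12 in TAM short and 105 and 65 in TAM long. It was highest in both TAM long libraries and rose there by 2.40 against control (SE 0.45, adjusted p = 0.00188) and by 1.88 against DMBA (SE 0.42, adjusted p = 0.0493). Ddc, the decarboxylase that completes the synthesis and is also made by enterocytes, fell in DMBA (-2.97, adjusted p = 9.12e-06), TAM long (-2.77, adjusted p = 1.25e-05) and TAM short, where it went from 291 to 72.6 CPM (adjusted p = 0.000426). Slc18a1, a vesicular amine transporter, fell by 2.17 in DMBA (adjusted p = 0.000323) and by 1.34 in TAM long (adjusted p = 0.00323).

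Receptors through which endocrine cells sense nutrients were tested for 6 of 9 genes, of which 4 rose and 1 fell in DMBA, 3 rose and 1 fell in TAM long, and 1 rose in TAM short. The shares of all genes were 24.5% and 23.3%, 23.2% and 22.8%, and 6.52% higher. Ffar1, Ffar3 and Gpbar1 passed the filter on low counts through no control library. These counts, and those in DMBA+TAM below, are therefore given as a description. Of the 12 neuronal and 12 fibroblast markers, 9 and 9 rose in DMBA and 6 and 7 in TAM long, and their part in the nutrient receptors was not tested. Ffar4, a receptor for long-chain fatty acids, was at 2.26 and 1.81 CPM in control, 18.7 and 21.2 in DMBA, 4.97 and 7.57 in TAM short, and 26.4 and 21.7 in TAM long. It was above control in every one of these libraries, with log2 fold changes of 3.28 in DMBA (adjusted p = 1.05e-05), 1.61 in TAM short (adjusted p = 0.00490) and 3.55 in TAM long (adjusted p = 6.19e-06). Ffar2, a receptor for short-chain fatty acids, rose by 3.12 in DMBA (adjusted p = 9.73e-05) and 2.76 in TAM long (adjusted p = 0.000216). It also rose in DMBA+TAM, by 2.06 (SE 0.41, adjusted p = 0.00151, 20.6 and 12.3 CPM against 5.54 and 2.17 in control). In DMBA+TAM 2 of the 6 rose and 2 fell, where 29% of all genes rose and 35.3% fell, and Ffar4 had 1 count in each library. Of the 12 fibroblast markers 11 rose there, and their part was not tested.

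Of 20 genes for hormone receptors and the peptidase Dpp4, 13 were tested. In DMBA 7 rose and 1 fell (24.5% and 23.3% of all genes), and in TAM long 6 rose and 1 fell (23.2% and 22.8%). Cckar, Npy1r, Npy2r, Npy4r and Sstr2 passed the filter on low counts through no control library, so these counts are given as a description. None passed in TAM short, where 6.52% of all genes were higher and 7.8% lower. In TAM short 3 had an unadjusted p under 0.05 and 1 passed with DESeq2. Of the 12 neuronal and 12 fibroblast markers, 9 and 9 rose in DMBA and 6 and 7 in TAM long, and their part in the receptor genes was not tested. Npy4r, a receptor of the peptide YY family, went from 0 and 3 counts in the controls to 204 and 101 in DMBA and to 188 and 222 in TAM long. Its log2 fold change was 6.28 in DMBA and 6.64 in TAM long. Npy4r passed the filter on low counts through libraries of DMBA and TAM long and 1 of TAM short, so its level is given as a description. Cckar, the receptor of cholecystokinin, was counted 3 and 3 times in the controls, 89 and 44 in DMBA and 63 and 59 in TAM long. Its log2 fold change was 4.15 in DMBA and 3.94 in TAM long, the groups where Cck itself was lower. Cckar passed the filter on low counts only through the libraries of these groups, so its level is given as a description. Dpp4, the peptidase that inactivates GLP-1 and Gip peptides, fell from 1466 and 1300 CPM in control to 30.4 and 54.1 in DMBA and 24.7 and 28.8 in TAM long, with log2 fold changes of -5.04 (adjusted p = 1.07e-06) and -5.69 (adjusted p = 6.29e-07). In DMBA+TAM, 5 of the 13 rose and 3 fell, where 29% of all genes rose and 35.3% fell. Glp1r, the receptor of GLP-1, had 26 and 29 counts there against 3 and 3 in control and 1 to 5 in the other libraries. Glp1r and Sctr passed the filter on low counts only through the DMBA+TAM libraries. Their levels and the count of genes that rose there are given as a description.

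Other genes were ranked by the correlation of log2(normalised CPM + 1) with each hormone gene over the 10 libraries, which share their groups, depth and segment marker differences. Nearest to Gip was AY761184 (r = 0.9995). Nearest to Insl5 was Ly6g (r = 0.997), nearest to Gcg was Slc35b3 (r = 0.992), and nearest to Pyy was 2310035C23Rik (r = 0.985). Sct was nearest to Frk (r = 0.993), Cck to Snx7 (r = 0.988), Tac1 to Duox2 (r = 0.985), Sst to Tnk1 (r = 0.985) and Nts to Kbtbd11 (r = 0.976). Among the hormone genes themselves Gcg and Tac1 were most alike (r = 0.96), and Gip and Insl5 were least alike (r = -0.61).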

How the data were processed

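Poly-A RNA of 10 libraries labelled as organoids was sequenced. Per the study's methods, reads were mapped with TopHat and counted per gene with HTSeq. The deposited table gave read counts per gene and library, and FPKM that the authors computed from them, on build GRCm38.p6 (submitters' processing notes). Columns with the authors' own comparisons (means, fold changes and p-values) were not used, and 5 broken lines without counts were left out.

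Counts were analysed with edgeR 4.0.16 in R 4.3.3: filterByExpr by group (16179 genes kept), TMM scaling, 1 mean for each of 5 groups over all 10 libraries, the quasi-likelihood F test and Benjamini-Hochberg adjustment over all genes tested, with a threshold of 0.05. The fit script was tested on simulated counts with known changes. Deposited FPKM were used for levels between genes and for sums and shares over the hormone genes, with no test. A group with 0 counts was compared through a floor of 3 counts per library, and intervals (95%, exact binomial) cover counting error only. DESeq2 1.42.0, other scaling, no filter, fewer libraries, a larger fold and a replicate block were alternatives, and leaving DMBA+TAM out of the fit was added after seeing the data.

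All 10 hormone genes were named in every group. From the lists for transcription factors, granule and processing, serotonin, nutrient receptors and hormone receptors, up to 4 genes that passed with the largest fold change and a mean of at least 20 counts were eligible by rule. Rfx6 and the segment markers Car1, Aqp8, Hoxb13, Gata4, Fabp6 and Slc5a1 were named or plotted after their values were seen. The hormone genes and lists were chosen with earlier results of these data known. Upstream sequences came from RefSeq (10 of 10 genes matched), exon counts from GENCODE.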

Additional observations from a re-analysis of the deposited data

How the results depend on the processing

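No log2 fold change of a hormone gene that passed the test turned its direction in any alternative run. For TAM long against DMBA, the main count of 1 gene called became 2 with DESeq2, 0 with library size scaling, 5 with no filter on low counts, 0 in a fit of the 4 libraries alone, and 0 to 4 with 1 library left out. For TAM long against TAM short, the count of 4 became 7 with no filter and 2 to 4 with 1 library left out. Leaving the DMBA+TAM libraries out of the fit kept the counts at 7, 6 and 4 against control (DMBA, TAM long, TAM short), 1 against DMBA and 4 against TAM short. Without the filter, Nts passed in every comparison where it was tested (adjusted p from 1.63e-33 to 0.0136), although its libraries were far apart in DMBA and TAM long. Scaling by library size alone moved the median log2 fold change of all genes in DMBA against control from 0.07 to 0.38.

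Replicate numbers paired no samples by label, and the correlation of the differences between replicates ran from -0.06 to 0.32 over pairs of groups, highest for DMBA with TAM long. With the replicate block, 8 in place of 7 genes were called in DMBA+TAM against control, the added gene being Nts (-3.34, adjusted p = 0.0479), and no other count changed. Low totals in DMBA+TAM and low counts of Ghrl and the transcription factors limit what could be tested.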

Other observations

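Among 12 further gut peptide genes, 9 were tested: 4 were higher and 1 lower in DMBA than in control (24.5% and 23.3% of all genes), and 6 were higher and 1 lower in TAM long (23.2% and 22.8%). Markers of enteric neurons, which make several of these peptides, rose in the same comparisons (9 of 12 and 6 of 12), and their part was not tested. None passed in TAM short with edgeR, where 6.52% of all genes were higher and 7.8% lower. Of the 9 there, 1 had an unadjusted p under 0.05 and none passed with DESeq2. The genes named here were chosen after their values were seen. Ppy, the pancreatic polypeptide gene, of the same family as Pyy, had no count in control, 10 and 25 in DMBA, 0 and 1 in TAM short, 51 and 66 in TAM long and none in DMBA+TAM. It was present in the groups that also held Insl5. Ppy passed the filter on low counts only through libraries of DMBA and TAM long, as did Grp, so the levels of both are given as a description. Grp, the gastrin-releasing peptide of enteric neurons, had 2 and 5 counts in control against 202 and 133 in DMBA and 116 and 72 in TAM long. Penk, the enkephalin precursor, had 35 and 136 counts in DMBA+TAM, where the hormone genes had almost none, against 8 and 4 in control. Its log2 fold change there was 5.80 (SE 0.58). Penk passed the filter on low counts through no control library. Its level is therefore given as a description, as are the counts of genes higher than in control. Npy went the other way, with 21 and 34 counts in control, 12 and 7 in TAM short, 0 and 1 in DMBA and 3 and 0 in TAM long. Npy passed the filter on low counts only through libraries of control and TAM short, so its level is given as a description. Gast, the gastrin gene, had no count in any library.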
